A study of Mus musculus with 92 samples.

Results

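The 7 genes described here encode transcription factors linked to microglial identity: Sall1, Sall3, Mef2a, Mef2c, Maf, Bhlhe40 and Bhlhe41. They were found in the deposited expression table by gene symbol, as 7 of 29956 named genes measured in 92 mouse RNA libraries. The study put cells from bone marrow, and conditionally immortalized macrophages, into mouse brains that lack microglia and asked how closely the engrafted cells come to resemble microglia. Other libraries covered the same cells in culture, cells edited at Adar, and cells given baricitinib.

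All cells were of the FVB background. Microglia (n = 9) came from unmanipulated WT mice, with 7 libraries named WT and 2 named YSWT. BMD macrophages (n = 3) were WT marrow cells grown in M-CSF for 7 days, with libraries named Mac or wBM. ER-Hoxb8 cells are myeloid progenitors held in an immature, dividing state by an estrogen-dependent Hoxb8 protein, in medium with GM-CSF and beta-estradiol, and they differentiate in M-CSF once estradiol is withdrawn. ER-Hoxb8 progenitors, cells at 4 days of differentiation (labelled 4div) and macrophages at 7 days (n = 3 each) carried 1 copy of a Cas9 transgene. Microglia-like cells (MLC) were donor cells injected into the brains of early postnatal Csf1r-/- pups, which lack microglia, and sorted back out later. BMD MLC (n = 6) came from WT marrow. ER-Hoxb8 MLC (n = 6) were labelled WT, with 3 libraries named GFPHox and 3 named WTHox with the suffix Lo. The ER-Hoxb8 macrophages in culture and the MLC were thus not of the same labelled genotype. BM progenitors and BM monocytes (n = 3 each) were isolated from WT marrow and not cultured. The edited ER-Hoxb8 cells carried Cas9 and a non-targeting control guide (NTC) or 1 of 2 guides to Adar, sgRNA 1 and sgRNA 2. They were sequenced as progenitors (n = 3 for each) and as macrophages at 7 days (n = 3 for NTC and sgRNA 1, n = 5 for sgRNA 2). NTC progenitor libraries were named NTC2Prog, and NTC macrophage libraries NTC or NTC2. In the baricitinib experiment, NTC macrophages and macrophages labelled Adar1 KO (sgRNA 1) received 0, 0.0006, 0.016, 0.4 or 10 uM of this JAK inhibitor at each change of medium, with 3 or 4 libraries a dose. These doses are those of the sample titles; the protocol in the labels and the study's methods give other values for the doses of 0.0006 and 0.016 uM, the latter 10 times higher. The titled 0.016, 0.4 and 10 uM are evenly spaced in ratio, and the other value is not. RNA of cells sorted from brain was isolated with another kit than RNA of cultured cells, so brain origin and kit cannot be told apart where MLC or microglia were compared with macrophages.

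Microglia are the resident macrophages of the brain, and a set of transcription factors separates them from macrophages of other tissues. SALL1 and SALL3 are zinc finger proteins, of which SALL1 is needed to keep microglia in their homeostatic state. MEF2A and MEF2C bind AT-rich elements beside the myeloid factor PU.1, MAF drives genes of mature macrophages, and BHLHE40 and BHLHE41 are repressors that bind E boxes and act in tissue macrophages and in the circadian clock.

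The deposited values are normalized read abundances on a log2 scale (log2 CPM), and a gene with no signal is listed at the lowest value of its column. That lowest value was -3.62 in the 27 libraries of macrophages at 7 days, MLC and microglia, -4.34 in the 12 libraries of BM progenitors, BM monocytes, ER-Hoxb8 progenitors and 4div cells, -3.43 in 11 libraries of NTC and sgRNA 1 cells, -3.56 in the 8 of sgRNA 2, and -2.78 in the 33 with baricitinib. Values were compared only within such a set. NTC macrophage replicate 2 had a lowest value of its own, -3.09, and was left out of every fit. Differences are log2 fold changes (log2FC) with their standard error (SE) from limma, and a gene was called at an adjusted p below 0.05 over all genes tested. Overlap between groups was looked at for the factors only, and the share of all genes without overlap was not counted.

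Several libraries stood apart from their groups. Microglia replicate 8, a YSWT library, had a summed level of 5 astrocyte markers of 339 CPM, against 3.04 to 7.14 CPM in the other 8, and neuron markers at 47.4 CPM. Its most abundant astrocyte marker was Slc1a2, 1 of the 5 was at the lowest value, and 56.9% of its genes were at the lowest value. ER-Hoxb8 MLC replicate 6 had lower Sall3 (-0.30) and Mef2c (3.35) than the other 5 libraries of its group, and its sum of 11 immediate early genes, 879 CPM, was the highest of the 27 libraries. ER-Hoxb8 macrophage replicate 3 had Maf at 3.07, against 7.39 and 7.14 in its partners. ER-Hoxb8 progenitor replicate 2 held higher Mef2a, Maf and Bhlhe41 than its partners. The main results that rest on these libraries are given with and without them.

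Markers of border macrophages were higher in all 12 MLC libraries than in all 9 microglia, and those of neutrophils varied widely among MLC. Border macrophage markers, 6 genes led by Mrc1, Ms4a7 or F13a1, had a median of 68.6 CPM in microglia, 3866 CPM in BMD MLC and 1136 CPM in ER-Hoxb8 MLC, beside 1962 CPM in BMD macrophages and 1646 CPM in ER-Hoxb8 macrophages. Among the latter they were at 225 CPM in replicate 3, the library with low Maf, against 1646 and 3580 CPM. Neutrophil markers, 5 genes led by S100a8 in all 12 MLC libraries, ranged from 1794 to 14464 CPM in BMD MLC and from 106 to 19796 CPM in ER-Hoxb8 MLC, against 152 to 2512 CPM in microglia and at most 54.9 CPM in the macrophages. They parted the 2 series of ER-Hoxb8 MLC libraries, with 339, 106 and 137 CPM in GFPHox and 8503, 19796 and 1985 CPM in WTHox, so a result with 1 series alone also differs in these markers. The part of these markers in the levels of the 7 factors was not tested. In bulk libraries, fewer cells of a type and less RNA per cell cannot be told apart.

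Set against microglia, BMD MLC differed in 3 of the 7 factors, with Sall1 and Sall3 lower and Bhlhe40 higher, where 20.4% of 12647 genes tested were called. ER-Hoxb8 MLC differed in 5 of 7, with Sall1, Sall3, Mef2a and Maf lower and Bhlhe40 higher, where 33.8% of genes were called. Counting only called genes whose log2FC was 2 or more in size (DEG), 3 of 7 factors were past it in each comparison, where 10.7% and 16.3% of genes were. Relative to macrophages in culture, 4 of 7 factors were called in BMD MLC against BMD macrophages (background 30.7% of genes, 3 of 7 as DEG against 16%), and 6 of 7 in ER-Hoxb8 MLC against ER-Hoxb8 macrophages (background 34.7%, 5 of 7 as DEG against 19.3%). Microglia differed from BMD macrophages in 7 of 7 (background 40.8%, 4 of 7 as DEG against 23.4%) and from ER-Hoxb8 macrophages in 6 of 7 (background 42.0%, 6 of 7 as DEG against 24.6%). The 2 kinds of MLC differed from each other in 2 of 7 (background 15.1%, 1 of 7 as DEG against 6.53%), and the 2 kinds of macrophage in 1 of 7, Sall3 (background 1.97%, 1 of 7 as DEG against 1.87%). Some counts rested on 1 library: the 4 for BMD MLC against BMD macrophages was 2 without BMD macrophage replicate 2, and the 6 for ER-Hoxb8 MLC against ER-Hoxb8 macrophages was 3 without macrophage replicate 3, MLC replicate 2 or MLC replicate 4. The count of 2 between MLC was 4 after quantile normalization and 4 with library weights, by Sall1 and Maf in each, and the 3 for BMD MLC against microglia was 5 with library weights. The count of 1 between macrophages was 4 with library weights, by Mef2a, Mef2c and Bhlhe41, and 0 on log2(CPM + 1) by limma. Comparisons that share a group share its libraries and are not independent of each other.

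**Figure D1:**
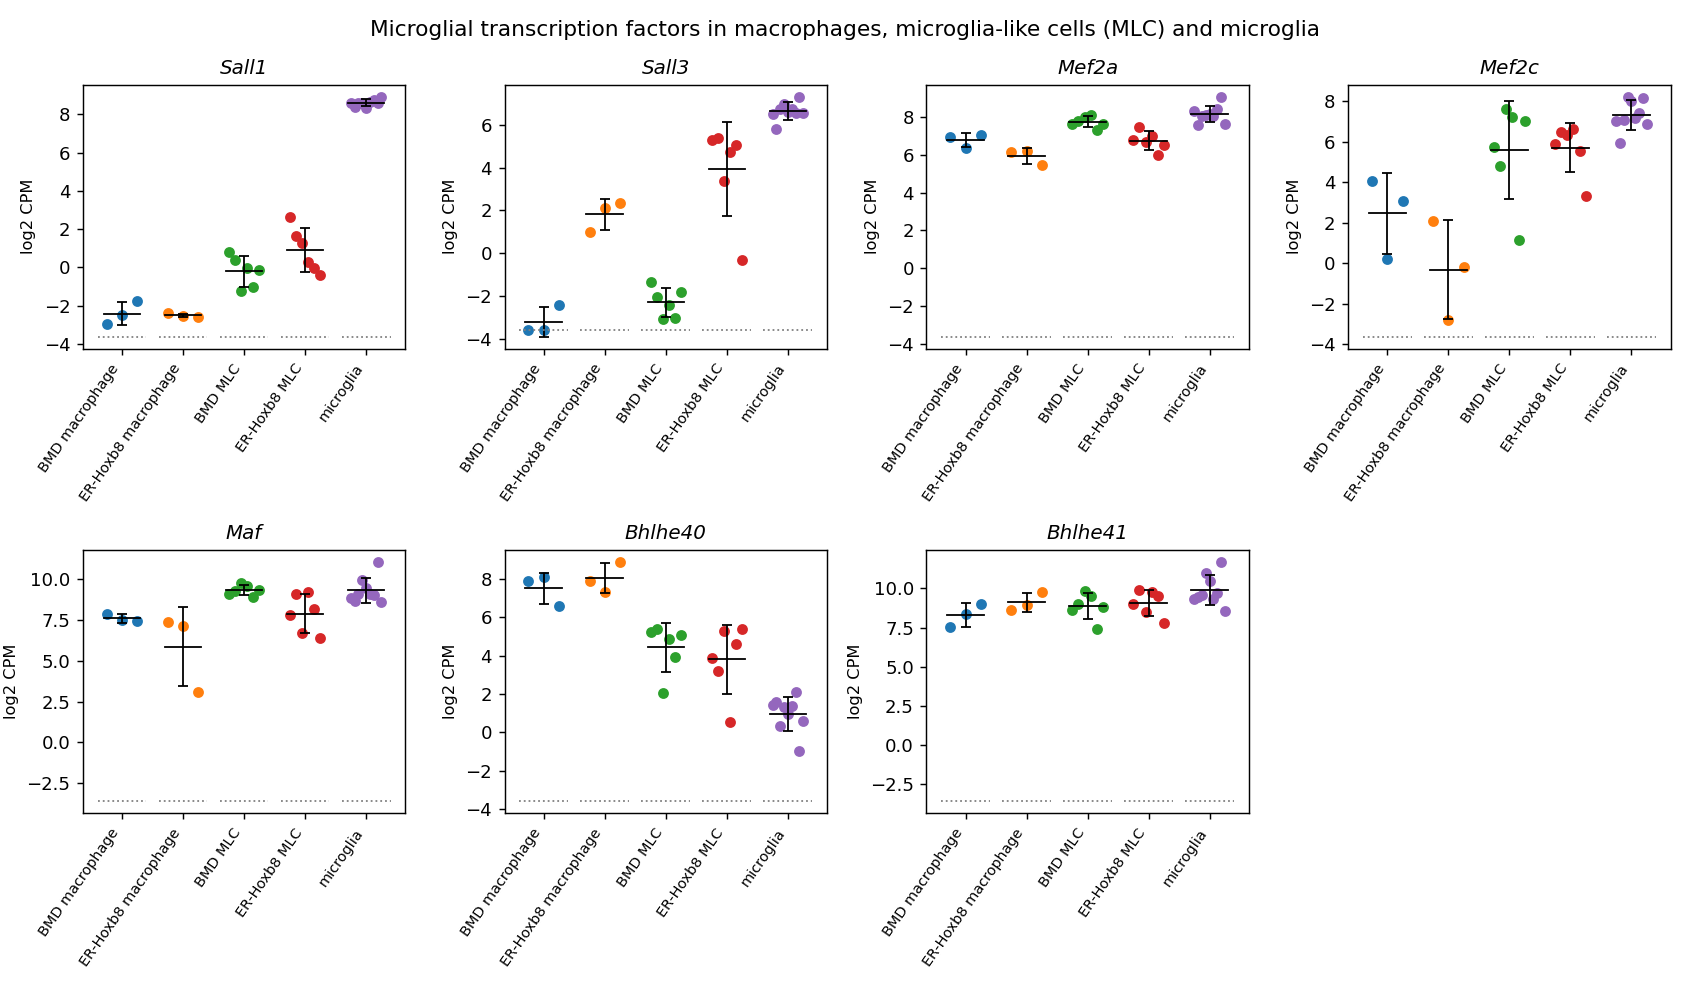
Log2 CPM of each factor in the 27 libraries of BMD macrophages, ER-Hoxb8 macrophages, BMD MLC, ER-Hoxb8 MLC and microglia; points are libraries, the black line is the mean, the bar its SD, and the dotted line the lowest value of the set (-3.62). Sall1 lies above 8 in all 9 microglia and below 3 in the other 18 libraries, and Bhlhe40 shows the opposite order of groups.

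Sall1 divided microglia from all other cells. Its log2 CPM in microglia was 8.31 at the lowest, 8.60 at the median and 8.91 at the highest of 9 libraries. In ER-Hoxb8 MLC it was -0.38 at the lowest, 0.79 at the median and 2.66 at the highest, and in BMD MLC -1.26, -0.070 and 0.79. BMD macrophages had -2.97, -2.50 and -1.75, and ER-Hoxb8 macrophages -2.40, -2.52 and -2.61. Every microglia library thus lay above every MLC library, and all 12 MLC libraries lay above all 6 macrophage libraries. Sall1 was lower than in microglia by a log2FC of -8.80 in BMD MLC (SE 0.40, adjusted p = 8.6e-15) and of -7.69 in ER-Hoxb8 MLC (SE 0.40, adjusted p = 1.2e-13). It rose over the cultured macrophages by 2.20 in BMD MLC (SE 0.53, adjusted p = 0.0029) and by 3.42 in ER-Hoxb8 MLC (SE 0.53, adjusted p = 2.4e-05). The macrophages lay near the lowest value of -3.62, so the sizes of these rises depend on it. Sall1 passed a CPM of 1 in all 9 microglia, which alone sufficed for it to be tested. The order of levels was microglia, ER-Hoxb8 MLC, BMD MLC, BMD macrophages and ER-Hoxb8 macrophages. The neighbours ER-Hoxb8 MLC and BMD MLC overlapped (log2FC 1.12, adjusted p = 0.084), as did the 2 macrophage groups (log2FC -0.10).

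Some Sall1 comparisons among low values changed with the processing or the libraries used. On log2(CPM + 1), the rise in BMD MLC over BMD macrophages was 0.72 (adjusted p = 0.12). With the GFPHox libraries alone, Sall1 in ER-Hoxb8 MLC was 2.06 above BMD MLC (adjusted p = 0.0015), and without ER-Hoxb8 MLC replicate 6 the difference was 1.37 (adjusted p = 0.031). It was also called after quantile normalization (1.60, adjusted p = 0.012) and with library weights (1.64, adjusted p = 0.0049).

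The RefSeq promoter table (build GRCm38.p6; 250 bases before a start and 50 after it) held 4 of the 7 factors. It lists 3 starts for Sall1, all on the minus strand: chr8:89042813-89043112, chr8:89043463-89043762 and chr8:89044113-89044412. The last, whose start lies farthest upstream, is shown because Sall1 sets microglia apart from every other group of the set. Both strands were searched for 3 motifs, the E box CACGTG, the MEF2 element (CTA and TAG with any 4 bases between) and TGCTGA, the core of a MAF element. None of the 3 Sall1 windows held any of them, so no base is in capitals.
Sall1: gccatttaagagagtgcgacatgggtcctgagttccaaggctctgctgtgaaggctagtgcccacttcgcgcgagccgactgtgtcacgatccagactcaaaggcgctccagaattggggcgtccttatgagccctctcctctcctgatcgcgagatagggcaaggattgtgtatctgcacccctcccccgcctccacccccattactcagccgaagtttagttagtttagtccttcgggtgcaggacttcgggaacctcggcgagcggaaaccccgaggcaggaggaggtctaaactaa

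Sall3 differed between the 2 donor types, both in MLC and in macrophages. Microglia had 5.80, 6.61 and 7.30 (lowest, median and highest log2 CPM). The 6 ER-Hoxb8 MLC libraries had -0.30 at the lowest, 4.90 at the median and 5.37 at the highest, while BMD MLC had -3.07, -2.24 and -1.37. In culture, ER-Hoxb8 macrophages had 0.97, 2.11 and 2.35, whereas 2 of 3 BMD macrophage libraries were at the lowest value and the other had -2.42. All 6 ER-Hoxb8 MLC libraries were above all 6 BMD MLC libraries and below all 9 microglia. In culture too, all 3 ER-Hoxb8 macrophage libraries were above all 3 BMD macrophage libraries.

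Sall3 in ER-Hoxb8 MLC exceeded BMD MLC by a log2FC of 6.21 (SE 0.66, adjusted p = 2.2e-07), and remained below microglia by -2.73 (SE 0.60, adjusted p = 0.00079). BMD MLC were at -8.94 relative to microglia (SE 0.60, adjusted p = 1.4e-11). As BMD MLC lay near the lowest value of -3.62, the sizes of the log2FC that involve them depend on it. ER-Hoxb8 MLC were 2.11 above ER-Hoxb8 macrophages (SE 0.81, adjusted p = 0.044), although the groups overlapped through 1 library. That library was replicate 6, and without it the 3 log2FC of ER-Hoxb8 MLC were 7.05 over BMD MLC, -1.88 against microglia and 2.95 over macrophages. The rise over macrophages lost its call with the WTHox libraries alone (1.36, adjusted p = 0.24) after quantile normalization (1.95, adjusted p = 0.070), with no filter (adjusted p = 0.067) and in 12 of 27 fits that left out 1 library. Sall3 in BMD MLC was not called over BMD macrophages (adjusted p = 0.40). ER-Hoxb8 macrophages were called above BMD macrophages (adjusted p = 0.0018, in 3 of 3 libraries), with no fold given against a group near the lowest value, and were not called on log2(CPM + 1) (adjusted p = 0.17). Sall3 ran from microglia through ER-Hoxb8 MLC, ER-Hoxb8 macrophages and BMD MLC to BMD macrophages, and the last 2 of these neighbours were not called apart, except with library weights (1.33, adjusted p = 0.0055). ER-Hoxb8 macrophages and BMD MLC were not compared.

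The wider SALL family and the NuRD corepressor, which SALL1 recruits, were counted as lists, and list counts here stand beside 20.4% and 33.8% of all genes called for BMD and ER-Hoxb8 MLC against microglia, and 30.7% and 34.7% against macrophages. Of the family, only Sall2 passed the filter, and it fell by 5.60 in ER-Hoxb8 MLC relative to microglia (adjusted p = 1.3e-07) and by 1.96 in BMD MLC. Of 10 NuRD genes, 0 rose and 2 fell in BMD MLC against microglia (median log2FC -0.43, all genes 0.064), and 0 rose and 1 fell in ER-Hoxb8 MLC (median -0.25, all genes -0.10). Against macrophages, 3 of 10 fell in each kind of MLC, with medians of -0.48 and -0.65 beside all-gene medians of -0.0072 and -0.15. The NuRD counts thus lay at or below the share of all genes. Gatad2b, a NuRD subunit, fell by 3.07 in BMD MLC and by 5.37 in ER-Hoxb8 MLC. SALL1 in microglia is linked to TGF-beta signalling through SMAD proteins. Of 8 genes of that route, 2 fell in BMD MLC and 3 in ER-Hoxb8 MLC relative to microglia (medians -0.43 and -0.66), and 2 rose in each over macrophages (medians 0.55 and -0.021), close to the share of all genes. Smad7, an inhibitory SMAD, rose by 2.42 and 2.82 over the respective macrophages, and Smad3 fell by 3.26 in ER-Hoxb8 MLC relative to microglia.

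**Figure D2:**
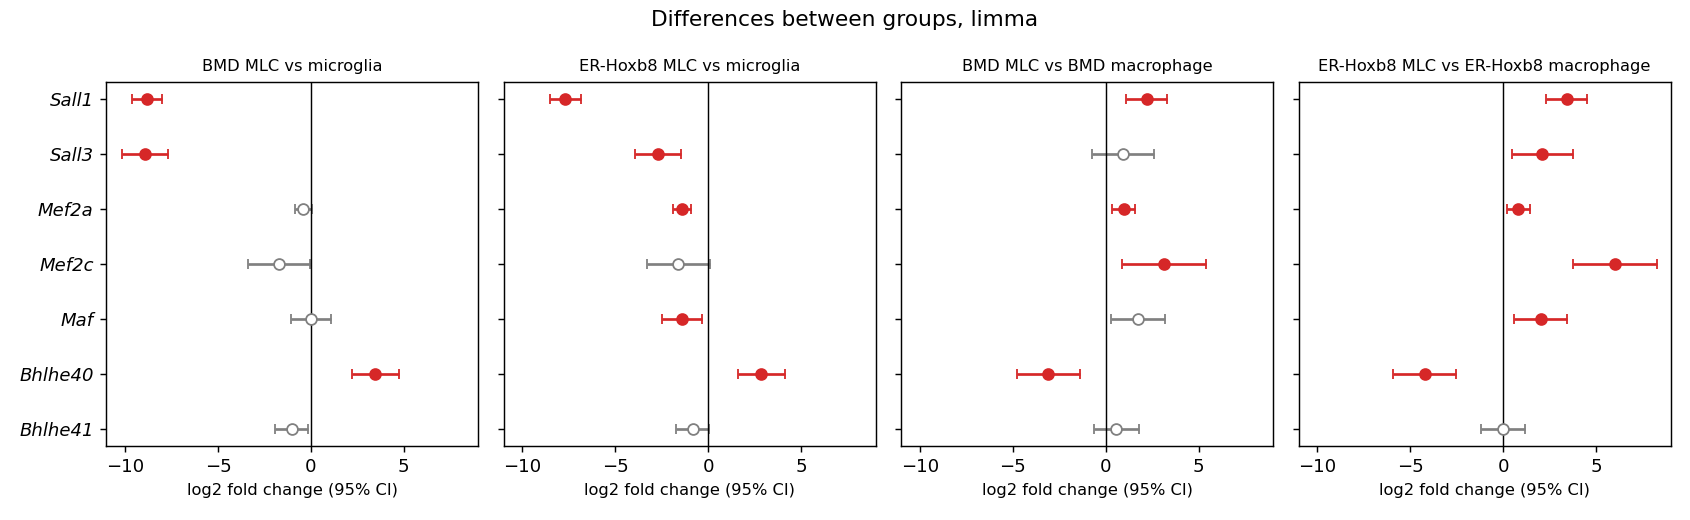
Log2FC of each factor in 4 comparisons, from limma; points are estimates, bars are 95% confidence intervals, red filled points have an adjusted p below 0.05 and grey open points do not. Sall1 is farthest from 0 against microglia in ER-Hoxb8 MLC (-7.69), while Bhlhe40 lies right of 0 against microglia and left of 0 against macrophages.

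Mef2a was above 5 in every library of the 5 groups. Its log2 CPM was 7.56, 8.11 and 9.06 in microglia (lowest, median, highest), 7.30, 7.74 and 8.11 in BMD MLC, and 5.98, 6.74 and 7.50 in ER-Hoxb8 MLC. BMD macrophages had 6.95, 6.38 and 7.04, and ER-Hoxb8 macrophages 6.15, 6.23 and 5.44. All 6 ER-Hoxb8 MLC libraries were below all 9 microglia, whereas BMD MLC overlapped with microglia and lay above all 3 BMD macrophage libraries. The log2FC against microglia was -1.42 in ER-Hoxb8 MLC (SE 0.23, adjusted p = 1.7e-05) and -0.40 in BMD MLC (adjusted p = 0.24). Mef2a rose over macrophages by 0.96 in BMD MLC (SE 0.30, adjusted p = 0.018) and by 0.80 in ER-Hoxb8 MLC (SE 0.30, adjusted p = 0.041). Microglia exceeded BMD macrophages by 1.36 (SE 0.29, adjusted p = 0.00046) and ER-Hoxb8 macrophages by 2.22 (SE 0.29, adjusted p = 6.9e-07), with no overlap. ER-Hoxb8 MLC were lower than BMD MLC by a log2FC of -1.01 (SE 0.25, adjusted p = 0.0060), and by -0.76 with the GFPHox libraries alone (adjusted p = 0.077). Both rises were lost when 1 macrophage library was left out, at 0.76 without BMD macrophage replicate 2 (adjusted p = 0.11) and 0.55 without ER-Hoxb8 macrophage replicate 3 (adjusted p = 0.23). Levels ran from microglia to BMD MLC, BMD macrophages, ER-Hoxb8 MLC and ER-Hoxb8 macrophages. Microglia and BMD MLC were not called apart, except with library weights (-0.46, adjusted p = 0.0087), and BMD macrophages and ER-Hoxb8 MLC, whose ranges overlapped, were not compared.

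The Mef2a promoter is shown because it holds an element of its own family. The window chr7:67372809-67373108 (GRCm38.p6, minus strand) has 1 match to the MEF2 element, in capitals, a motif that 3.69% of 32851 promoters of this length hold on either strand. A match is a run of letters and not a measured binding site.
Mef2a: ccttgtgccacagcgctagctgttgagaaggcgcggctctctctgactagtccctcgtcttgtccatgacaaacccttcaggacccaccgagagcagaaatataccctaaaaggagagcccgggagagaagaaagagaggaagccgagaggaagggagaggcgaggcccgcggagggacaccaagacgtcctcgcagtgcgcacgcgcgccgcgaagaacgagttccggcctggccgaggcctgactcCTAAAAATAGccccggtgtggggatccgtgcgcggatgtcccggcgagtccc

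Mef2c was raised in cells from brain but varied widely within groups. Microglia had 5.95, 7.17 and 8.22 (lowest, median, highest log2 CPM), BMD MLC 1.15, 6.38 and 7.64, and ER-Hoxb8 MLC 3.35, 6.12 and 6.65. BMD macrophages had 4.08, 0.24 and 3.09, and ER-Hoxb8 macrophages 2.08, -2.81 and -0.19. Every ER-Hoxb8 MLC library was above the 3 ER-Hoxb8 macrophage libraries, and the low ends of both MLC groups were single libraries, BMD MLC replicate 5 and ER-Hoxb8 MLC replicate 6. Mef2c rose by a log2FC of 6.02 in ER-Hoxb8 MLC over their macrophages (SE 1.09, adjusted p = 0.00017) and by 3.13 in BMD MLC over theirs (SE 1.09, adjusted p = 0.031). It was not called against microglia, at -1.72 in BMD MLC (adjusted p = 0.15) and -1.61 in ER-Hoxb8 MLC (adjusted p = 0.13). Without those low libraries the values were -0.83 in BMD MLC and -1.14 in ER-Hoxb8 MLC. The rise in BMD MLC was 2.01 without BMD macrophage replicate 2 (adjusted p = 0.23) and 1.89 with library weights (adjusted p = 0.098). The difference between the rises was 2.89 (adjusted p = 0.39), and 5.26 with library weights (adjusted p = 0.028). By means, Mef2c ran from microglia to ER-Hoxb8 MLC, BMD MLC, BMD macrophages and ER-Hoxb8 macrophages, but the 2 MLC groups change places by medians, without BMD MLC replicate 5 (-0.78) and with the WTHox libraries alone (-0.41). Of these neighbours only BMD MLC and BMD macrophages were called apart with equal weights; with library weights the 2 macrophage groups were (-4.78, adjusted p = 0.0021).

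RefSeq lists 3 Mef2c starts on the plus strand, at chr13:83503784-83504083, chr13:83523406-83523705 and chr13:83573357-83573656 (GRCm38.p6). The last is shown because it alone of the 3 holds any of the 3 motifs, 1 TGCTGA in capitals, which 19.5% of promoters hold.
Mef2c: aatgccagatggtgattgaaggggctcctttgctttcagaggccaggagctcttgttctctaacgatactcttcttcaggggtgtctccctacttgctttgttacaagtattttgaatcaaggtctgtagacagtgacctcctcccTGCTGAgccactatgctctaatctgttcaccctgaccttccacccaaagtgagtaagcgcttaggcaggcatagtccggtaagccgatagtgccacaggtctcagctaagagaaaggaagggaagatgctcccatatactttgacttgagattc

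Mef2d, the other MEF2 gene that passed the filter, was not called in any of the 4 comparisons of MLC with microglia or macrophages. Class IIa histone deacetylases bind MEF2 factors and repress their targets. Of these 4 genes, 0 were called against microglia by limma in either kind of MLC (medians 1.11 and 0.16), and 1 rose in BMD MLC over BMD macrophages (median 0.62) while 0 did in ER-Hoxb8 MLC (median 0.63).

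Maf in BMD MLC stood at the level of microglia. Its log2 CPM was 8.56, 9.08 and 11.06 in microglia (lowest, median, highest), 8.88, 9.30 and 9.77 in BMD MLC, and 6.36, 7.97 and 9.20 in ER-Hoxb8 MLC. BMD macrophages had 7.87, 7.47 and 7.41, and ER-Hoxb8 macrophages 7.39, 7.14 and 3.07. All 6 BMD MLC libraries were above the 3 BMD macrophage libraries, and the highest microglia value and the lowest macrophage value came from 2 of the libraries that stood apart, replicates 8 and 3. Against microglia the log2FC was 0.017 in BMD MLC (95% CI -1.05 to 1.08) and -1.41 in ER-Hoxb8 MLC (SE 0.52, adjusted p = 0.036). The fall in ER-Hoxb8 MLC was -1.19 without microglia replicate 8 (adjusted p = 0.058) and -1.11 without ER-Hoxb8 MLC replicate 6 (adjusted p = 0.11). Maf rose in ER-Hoxb8 MLC over their macrophages by 2.02 (SE 0.70, adjusted p = 0.027), a value that became 0.62 without ER-Hoxb8 macrophage replicate 3 (adjusted p = 0.46). In BMD MLC the log2FC over BMD macrophages was 1.73 and missed the threshold (adjusted p = 0.060). It was called after quantile normalization (2.14, adjusted p = 0.015), with library weights (1.45, adjusted p = 0.00045) and on log2(CPM + 1) (adjusted p = 0.0497). It was also called without ER-Hoxb8 macrophage replicate 3 (adjusted p = 0.013) or microglia replicate 8 (adjusted p = 0.039), both outside this comparison. The difference of ER-Hoxb8 MLC from BMD MLC (-1.43, adjusted p = 0.091) was called without ER-Hoxb8 macrophage replicate 3 (adjusted p = 0.022). Microglia were 1.71 above BMD macrophages (adjusted p = 0.039), and 1.49 without replicate 8 (adjusted p = 0.056). Maf levels ran from BMD MLC to microglia, ER-Hoxb8 MLC, BMD macrophages and ER-Hoxb8 macrophages; only microglia and ER-Hoxb8 MLC among these neighbours were called apart, and ER-Hoxb8 MLC and BMD macrophages were not compared.

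Genes linked to MAF in macrophages, which include the complement genes C1qa, C1qb and C1qc and the scavenger receptors Cd163 and Mrc1, were also counted. Of 5 tested, 2 rose in BMD MLC against microglia (median 0.82), Cd163 by 6.32 and Mrc1 by 5.85, and 1, Mrc1, rose in ER-Hoxb8 MLC by 2.50 (median -0.22). Over macrophages, 2 of 5 rose in BMD MLC (median 3.14) and 3 of 5 in ER-Hoxb8 MLC (median 4.29), with C1qb at 4.32 and 8.61. Cd163 and Mrc1 are also border macrophage markers.

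Bhlhe40 was lowest in microglia and highest in macrophages. Microglia had -0.96, 1.33 and 2.09 (lowest, median, highest log2 CPM), BMD MLC 2.08, 4.97 and 5.42, and ER-Hoxb8 MLC 0.56, 4.24 and 5.39. BMD macrophages had 7.88, 8.10 and 6.61, and ER-Hoxb8 macrophages 7.91, 7.35 and 8.91. All 12 MLC libraries were below all 6 macrophage libraries, and each MLC group overlapped with microglia through its lowest library. The log2FC against microglia was 3.48 in BMD MLC (SE 0.62, adjusted p = 0.00013) and 2.86 in ER-Hoxb8 MLC (SE 0.62, adjusted p = 0.00063). Relative to macrophages, Bhlhe40 fell by 3.09 in BMD MLC (SE 0.83, adjusted p = 0.0062) and by 4.24 in ER-Hoxb8 MLC (SE 0.83, adjusted p = 0.00035). The order of means was ER-Hoxb8 macrophages, BMD macrophages, BMD MLC, ER-Hoxb8 MLC and microglia. The 2 macrophage groups keep this order by medians and change places with library weights (-0.23). Neither the 2 macrophage groups (adjusted p = 1.0) nor the 2 MLC groups (adjusted p = 0.59) differed beyond their spread.

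Genes of the early stress response were also higher in many MLC libraries than in microglia. Of 10 such genes tested, including Fos, Jun and Egr1, 5 rose and 1 fell in BMD MLC against microglia (median 2.10, beside 20.4% of all genes called), and 7 rose in ER-Hoxb8 MLC (median 2.09, beside 33.8%). The summed level of the 11 genes on this list overlapped between groups, at 39.8 to 224 CPM in microglia, 141 to 465 CPM in BMD MLC and 160 to 879 CPM in ER-Hoxb8 MLC, and 172 to 421 CPM in the macrophages. Whether handling of the cells bears on Bhlhe40 was not tested.

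Bhlhe41 was high in all 5 groups and was the most even of the factors across them. Microglia had 8.54, 9.57 and 11.71 (lowest, median, highest log2 CPM), BMD MLC 7.42, 8.91 and 9.86, and ER-Hoxb8 MLC 7.80, 9.24 and 9.91. BMD macrophages had 7.52, 8.36 and 9.02, and ER-Hoxb8 macrophages 8.63, 8.91 and 9.78. All 5 ranges overlapped, and the highest value was again microglia replicate 8. Against microglia, the log2FC was -1.03 in BMD MLC (adjusted p = 0.097) and -0.83 in ER-Hoxb8 MLC (adjusted p = 0.14), neither called. Over macrophages it was 0.58 (adjusted p = 0.47) and -0.034 (adjusted p = 0.97). Microglia were above BMD macrophages by 1.60 (SE 0.54, adjusted p = 0.021), which became 1.21 without BMD macrophage replicate 1 (adjusted p = 0.15). By means, levels ran from microglia to ER-Hoxb8 macrophages, ER-Hoxb8 MLC, BMD MLC and BMD macrophages, but ER-Hoxb8 MLC and macrophages change places by medians, after quantile normalization (0.11), with library weights (0.11) and with the GFPHox libraries alone (0.025). Of the neighbours that were compared, none was called apart by limma with equal weights. With library weights, Bhlhe41 in BMD MLC was called over BMD macrophages (0.93, adjusted p = 0.016) and below microglia (-0.86, adjusted p = 0.012), the latter also without microglia replicate 9 (-1.20, adjusted p = 0.046).

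The Bhlhe41 promoter is shown because it holds the E box its own family binds. The window chr6:145865371-145865670 (GRCm38.p6, minus strand) has 1 CACGTG, in capitals, a motif held by 7.15% of promoters. Each CACGTG is also a match to the looser E box CANNTG, of which the window has 4 and which 72.3% of promoters hold.
Bhlhe41: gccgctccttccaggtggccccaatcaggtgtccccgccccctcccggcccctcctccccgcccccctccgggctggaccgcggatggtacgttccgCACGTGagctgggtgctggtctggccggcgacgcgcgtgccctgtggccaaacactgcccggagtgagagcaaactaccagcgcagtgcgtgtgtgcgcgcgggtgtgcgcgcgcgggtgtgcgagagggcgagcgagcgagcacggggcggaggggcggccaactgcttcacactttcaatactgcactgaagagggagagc

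The circadian loop that BHLHE40 and BHLHE41 repress includes Clock, Per1 and Nr1d1. Of 9 such genes tested, 1 rose in BMD MLC against microglia (median 0.87), Per1 by 3.32, while in ER-Hoxb8 MLC 1 rose and 3 fell (median -1.33). The genes that fell there were Nr1d2 by 4.18, Nr1d1 by 2.96 and Per3 by 2.12. Over macrophages, 0 of 9 were called in BMD MLC by limma (median 0.79), and 2 fell in ER-Hoxb8 MLC, Clock by 4.22 and Nr1d1 by 4.07 (median -0.43). Of all genes, 20.4% and 33.8% were called against microglia and 30.7% and 34.7% against macrophages, and the counts were not tested against these shares. Factors common to myeloid cells, such as Spi1 and Irf8, gave 1 of 8 up in BMD MLC, and 2 up and 1 down in ER-Hoxb8 MLC, relative to microglia (medians 0.18 and 0.17). Over macrophages they gave 1 up and 1 down, and 2 up and 1 down (medians 0.14 and 0.43).

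Whether MLC differed from cultured macrophages by unlike amounts in the 2 donor types was tested as the difference between the 2 rises over macrophages. The study injected progenitors, not macrophages. ER-Hoxb8 macrophages also carried Cas9, whereas ER-Hoxb8 MLC were labelled WT. Entry into the brain thus cannot be told apart here from differentiation in culture or from genotype. No factor was called in this test (0 of 7 by limma, 0 of 7 at an unadjusted p below 0.05), where 3.23% of genes were called (0 of 7 as DEG against 2.45%). The differences were 1.22 for Sall1, 1.19 for Sall3, -0.16 for Mef2a, 0.29 for Maf, -1.15 for Bhlhe40 and -0.61 for Bhlhe41. Those of Sall1 and Sall3 rest on BMD macrophages near the lowest value. That for Maf changed direction, to -1.11 without ER-Hoxb8 macrophage replicate 3 and -0.72 with library weights. With the GFPHox libraries alone, the difference for Sall1 was 2.17 (adjusted p = 0.041), and with library weights that for Mef2c was called, as given above.

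Across the 27 libraries, Sall1 and Sall3 correlated at r = 0.811 and Mef2a and Maf at r = 0.844, while Bhlhe40 had r = -0.841 with Sall1 and -0.581 with Bhlhe41. These values describe libraries that fall into 5 groups and share those groups' differences, so no p is given. The genes most like each factor among 12647 were Jam2, Gm3411 and Gm6356 for Sall1 (r = 0.989, 0.985 and 0.981), and Vmn1r65, Csmd3 and Pnp2 for Sall3 (0.866, 0.827 and 0.827). For Mef2a they were Dock4, Kdelc2 and Arl4c (0.899, 0.899 and 0.897), and for Mef2c Pde3b, Bend6 and Rtn1 (0.872, 0.863 and 0.858). For Maf they were Fam135a, Rhobtb1 and Kdelc2 (0.927, 0.905 and 0.891), for Bhlhe40 Plin2, Plin3 and Myof (0.939, 0.938 and 0.937), and for Bhlhe41 Rbm15, 8030462N17Rik and Canx (0.900, 0.877 and 0.876). Kdelc2 was thus named for both Mef2a and Maf. Jam2, a junction protein, had medians of 7.57 in microglia, 1.42 in ER-Hoxb8 MLC and 0.15 in BMD MLC. In BMD and ER-Hoxb8 macrophages its medians were -1.55 and -1.83. This is the order of groups of Sall1, which the choice of Jam2 by correlation favours. Myof was at the lowest value in all 9 microglia and had medians of 6.50 and 5.64 in BMD and ER-Hoxb8 macrophages. Plin2, which coats lipid droplets, had medians of 6.05 in microglia, 7.56 and 7.79 in BMD and ER-Hoxb8 MLC, and 10.63 and 11.10 in BMD and ER-Hoxb8 macrophages.

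In marrow and in ER-Hoxb8 cells early in differentiation, Sall1 was near the lowest value. It was listed at the lowest value in 1 of 3 ER-Hoxb8 progenitor and 2 of 3 4div libraries, its highest value in the set was -1.82, and it did not pass the filter there, so 6 of 7 factors were tested. Sall3 was listed at the lowest value in 2 of 3 BM progenitor and 2 of 3 BM monocyte libraries, with -3.81 and -3.16 in the others. In contrast, it was 1.86, 1.82 and 4.19 in ER-Hoxb8 progenitors and 1.38, 1.92 and 2.14 in 4div cells. All ER-Hoxb8 libraries of the set were thus above all marrow libraries for Sall3.

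Set against BM progenitors, ER-Hoxb8 progenitors had higher Sall3 and Bhlhe40 and lower Mef2c, 3 of 6 tested, where 25.6% of genes were called. Sall3 was near the lowest value in BM progenitors and Mef2c near it in ER-Hoxb8 progenitors, so no fold is given for either (adjusted p = 3.0e-05 and 0.0015, in 3 of 3 libraries each). Mef2c was 3.26, 4.26 and 2.85 in BM progenitors and -4.34, -4.30 and -4.34 in ER-Hoxb8 progenitors. Bhlhe40 was 2.84, 3.40 and 3.44 in BM progenitors and 9.03, 6.89 and 7.34 in ER-Hoxb8 progenitors, a log2FC of 4.52 (SE 0.56, adjusted p = 0.00013) with no overlap. Without ER-Hoxb8 progenitor replicate 2, Maf (-3.61, adjusted p = 0.0060) and Bhlhe41 (-1.55, adjusted p = 0.0013) were also called lower.

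BM monocytes differed from BM progenitors in none of the 6 by limma (1 at an unadjusted p below 0.05), where 13.7% of genes were called. That 1 was Bhlhe41, at 6.31, 6.37 and 6.76 in progenitors and 4.76, 4.97 and 5.12 in monocytes (log2FC -1.53, adjusted p = 0.14). Mef2a was 3.23, 4.43 and 4.22 in progenitors and 5.35, 5.29 and 5.42 in monocytes (log2FC 1.39, adjusted p = 0.20). For both factors the groups did not overlap, and both were called without ER-Hoxb8 progenitor replicate 2, a library outside this comparison that widened the shared spread (adjusted p = 0.0018 and 0.011). Maf was 0.67, 2.20 and 1.53 in progenitors and 1.24, 2.11 and 2.12 in monocytes, Mef2c 3.08, 4.37 and 2.75 and Bhlhe40 2.97, 3.93 and 3.08 in monocytes.

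Between ER-Hoxb8 progenitors and 4div cells, 0 of 6 factors were called by limma (4 at an unadjusted p below 0.05), as were 0% of genes. Maf was -2.56, 5.12 and -1.73 in progenitors and 6.16, 5.32 and 3.23 in 4div cells, and Mef2a 3.36, 6.21 and 2.87 against 5.76, 6.11 and 6.18. Bhlhe41 was 5.06, 8.06 and 4.80 against 8.63, 8.24 and 7.92, and Bhlhe40 in 4div cells 8.32, 6.87 and 6.71. In each of Maf, Mef2a and Bhlhe41, progenitor replicate 2 lay among or near the 4div libraries. Without it, Maf was higher in 4div cells by 7.05 (adjusted p = 0.00034), Mef2a by 2.90 (adjusted p = 0.00055) and Bhlhe41 by 3.33 (adjusted p = 3.4e-05). Mef2c in 4div cells was -4.34, 0.089 and 3.03.

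**Figure D3:**
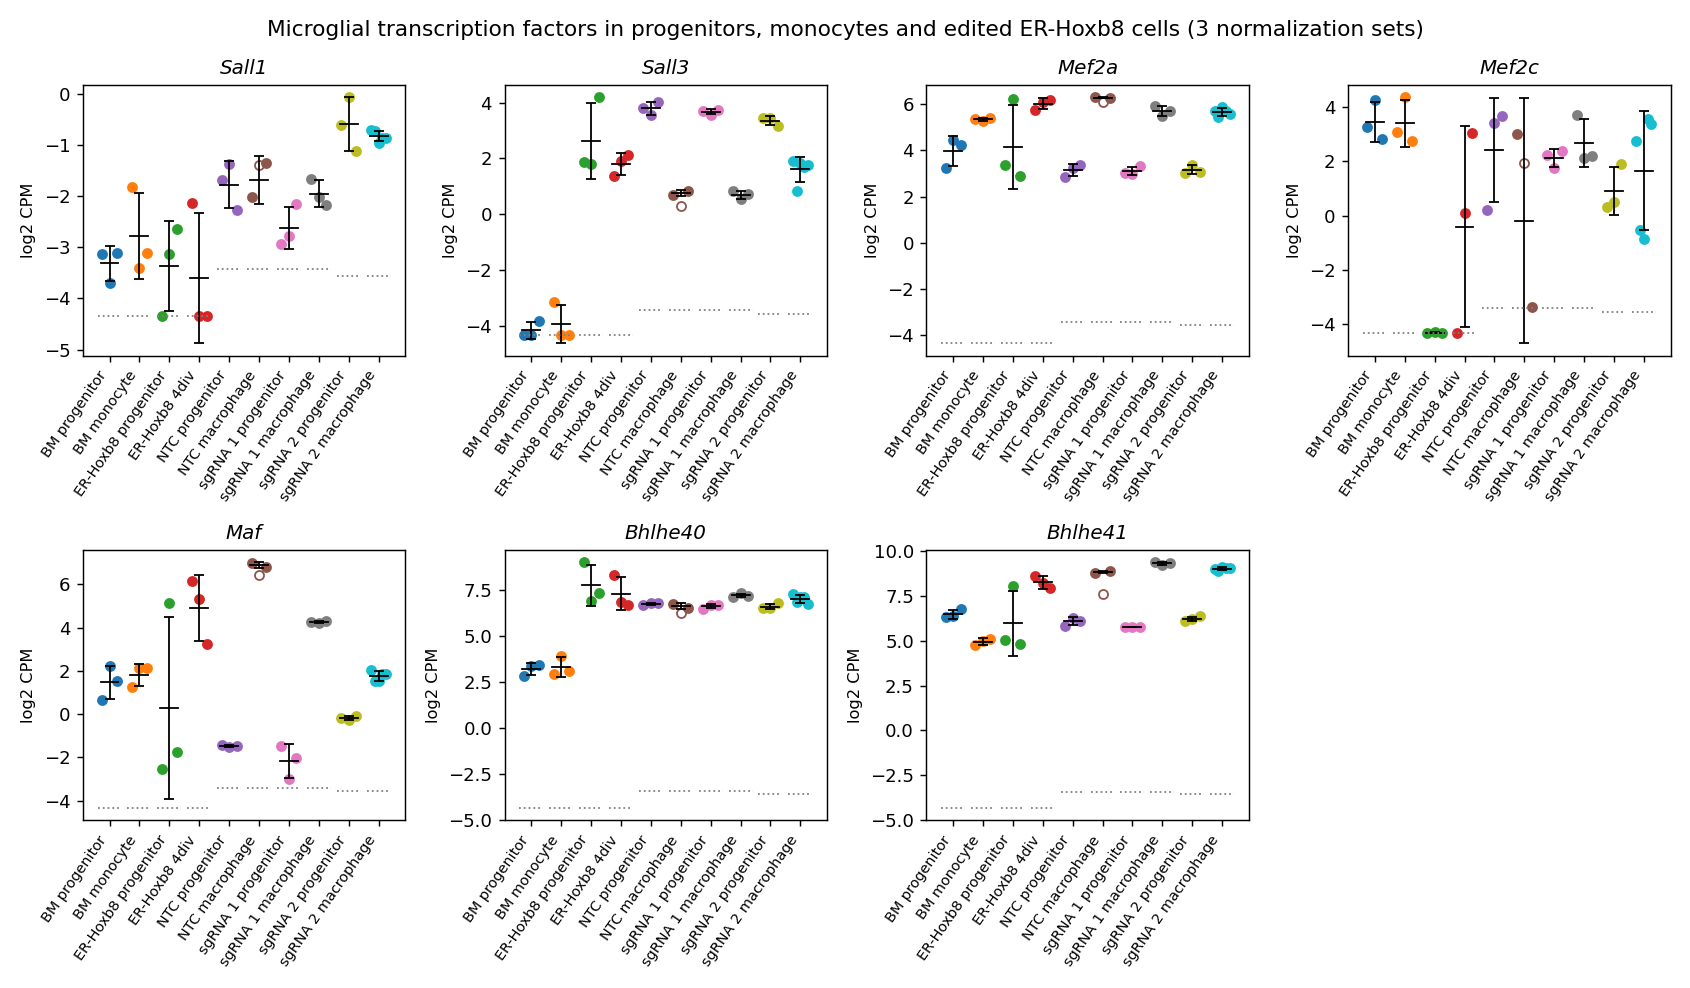
Log2 CPM of each factor in marrow cells, ER-Hoxb8 progenitors and 4div cells, and edited ER-Hoxb8 progenitors and macrophages, from 3 sets with lowest values (dotted lines) of -4.34, -3.43 and -3.56; points are libraries, black lines means and bars SD, and the open point is NTC macrophage replicate 2, which was not used. Maf is higher and Sall3 lower in the macrophages than in the progenitors of each edited line.

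In the edited cells, Adar itself was examined first. Its log2 CPM was 5.73 and 5.67 in the 2 NTC macrophage libraries used, 6.96, 7.15 and 7.01 in sgRNA 1 macrophages, and 6.99 to 7.03 in the 5 sgRNA 2 macrophage libraries. Progenitors had 4.20, 3.42 and 4.28 with NTC, 4.36, 4.23 and 4.24 with sgRNA 1, and 4.35, 4.56 and 4.36 with sgRNA 2. In macrophages Adar was thus higher, not lower, in the libraries labelled Adar1 KO, with a log2FC of 1.34 for sgRNA 1 over NTC (SE 0.21, adjusted p = 0.00098), and gene-level values do not show the edit. Directions drawn between these libraries and NTC rest on the labels; the study's own measures of the edit and of interferon-stimulated genes, which it reports in the direction of the labels, were not analysed here.

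Differentiation of edited progenitors into macrophages raised Maf, Mef2a and Bhlhe41 and lowered Sall3 in all 3 lines. These comparisons called most genes, 71.5% for NTC, 71.1% for sgRNA 1 and 81.1% for sgRNA 2, so the 4 of 6, 5 of 6 and 5 of 6 factors called do not stand out from the background. Maf was -1.45, -1.53 and -1.49 in NTC progenitors and 6.99 and 6.80 in NTC macrophages, with 6.44 in the replicate not used (log2FC 8.39, SE 0.36, adjusted p = 2.9e-09). Sall3 was 3.82, 3.56 and 4.02 in NTC progenitors and 0.70 and 0.84 in NTC macrophages, and fell by 3.03 (SE 0.20, adjusted p = 1.1e-07). Mef2a was 2.86, 3.24 and 3.36 in NTC progenitors and 6.29 and 6.27 in macrophages, and Bhlhe41 5.84, 6.27 and 6.13 and then 8.78 and 8.89. Progenitor and macrophage values did not overlap for these 4 factors in NTC, and how many of all genes did so was not counted.

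In sgRNA 1 cells, the log2FC from progenitor to macrophage was 6.40 for Maf, 2.60 for Mef2a, 3.57 for Bhlhe41, -2.98 for Sall3 and 0.58 for Bhlhe40 (adjusted p = 0.00031). In sgRNA 2 cells it was 1.93, 2.49, 2.79, -1.75 and 0.43 (adjusted p = 0.0071 for Bhlhe40). Bhlhe40 stayed between 6.49 and 7.32 in all sgRNA 1 libraries and was not called in NTC (log2FC -0.12, adjusted p = 0.35). Mef2c was called in none of the 3 lines. It was 3.02 and -3.40 in the 2 NTC macrophage libraries, so its log2FC of -2.61 over progenitors became 0.60 without replicate 3 and -5.82 without replicate 1. Without NTC progenitor replicate 1, Mef2c was called lower in NTC macrophages (-3.72, adjusted p = 0.047). Sall1 was between -2.93 and -1.34 in the NTC and sgRNA 1 libraries and between -1.11 and -0.058 in those of sgRNA 2, and was tested in neither set.

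Macrophages labelled Adar1 KO with sgRNA 1 differed from NTC macrophages in 4 of 6 factors, with Maf and Mef2a lower and Bhlhe40 and Bhlhe41 higher, where 21.8% of genes were called. Maf was 4.23, 4.19 and 4.29 with sgRNA 1 against 6.99 and 6.80 with NTC (log2FC -2.66, SE 0.36, adjusted p = 0.00031). Mef2a was 5.91, 5.50 and 5.70 against 6.29 and 6.27 (log2FC -0.58, SE 0.18, adjusted p = 0.046). Bhlhe40 was 7.12, 7.32 and 7.18 against 6.75 and 6.53 (log2FC 0.57, SE 0.11, adjusted p = 0.0047), and Bhlhe41 9.38, 9.24 and 9.34 against 8.78 and 8.89 (log2FC 0.49, SE 0.12, adjusted p = 0.015). None of these 4 factors overlapped between the groups, but the share of all genes without overlap was not counted. All 4 rest on 2 NTC libraries, and the call of Mef2a was lost without either of them. Mef2a was at -0.47 without sgRNA 1 macrophage replicate 2 (adjusted p = 0.15), and Bhlhe41 at 0.43 without NTC replicate 1 (adjusted p = 0.11). With the replicate number as a block, Mef2a was at -0.54 (adjusted p = 0.069) and the other 3 kept their calls. After quantile normalization, Bhlhe41 was at 0.36 (adjusted p = 0.052). Sall3 was 0.82, 0.54 and 0.73 with sgRNA 1 and did not differ beyond the spread (log2FC -0.075). Among progenitors of the same lines, 0 of 6 factors were called by limma (1 at an unadjusted p below 0.05), where 0.917% of genes were called. Maf-linked genes moved with Maf in the macrophages, 5 of 5 down with a median of -2.92 beside an all-gene median of 0.046, led by Cd163, which fell by 3.47, and Mrc1, which fell by 3.20. The sgRNA 2 cells had no NTC cells in their set and were not compared with NTC; their macrophages had Maf at 1.52 to 2.04.

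In the baricitinib experiment, untreated macrophages labelled Adar1 KO differed from untreated NTC macrophages in 2 of 6 factors, where 24.9% of genes were called. Adar was 5.12, 4.94 and 4.69 in untreated NTC and 7.42, 6.52 and 6.37 in untreated Adar1 KO libraries, again higher under the knockout label (log2FC 1.85, SE 0.48, adjusted p = 0.0051). Mef2a was 6.22, 6.54 and 6.40 in NTC and 5.45, 6.03 and 5.89 in Adar1 KO (log2FC -0.60, SE 0.13, adjusted p = 0.00084). Bhlhe40 was 6.40, 5.85 and 6.24 and then 7.50, 6.98 and 6.88 (log2FC 0.96, SE 0.34, adjusted p = 0.041), a call lost with no filter (adjusted p = 0.075) and without Adar1 KO replicate 1 (0.77, adjusted p = 0.17). Both factors moved as in the sgRNA 1 set, with no overlap. Bhlhe41, called higher there, was flat here (log2FC 0.0077, adjusted p = 0.98). The log2FC of Mef2c was -5.12 here and 2.87 there (adjusted p = 0.20), where it was -0.34 without NTC replicate 3. Maf was 3.34, 3.46 and 3.11 in NTC against 2.82, 2.88 and 2.82 and was not called (log2FC -0.47, adjusted p = 0.15). Mef2c was 1.41, 2.93 and 4.07 in NTC against -2.16, -2.62 and -2.16, with no overlap, and the difference was not called (adjusted p = 0.079) except with library weights (-5.75, adjusted p = 0.025). The Adar1 KO libraries lay near the lowest value of -2.78, so the size of this difference depends on it.

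Baricitinib at 10 uM raised Sall3, Mef2a and Maf and lowered Bhlhe40 in NTC macrophages, 4 of 6 factors, where 13.6% of genes were called. In macrophages labelled Adar1 KO, 6 of 6 were called, with the same 4 directions and with Mef2c and Bhlhe41 higher, where 65.0% of genes were called. Maf rose from 3.34, 3.46 and 3.11 to 4.59, 4.57 and 3.93 in NTC (log2FC 1.06, SE 0.24, adjusted p = 0.0038), and from 2.82, 2.88 and 2.82 to 5.15, 5.61, 5.08 and 5.04 in Adar1 KO (log2FC 2.38, SE 0.22, adjusted p = 3.4e-10). Bhlhe40 fell to 5.21, 4.63 and 5.61 in NTC, by 1.01 (SE 0.34, adjusted p = 0.0499), and to 4.81, 3.77, 4.74 and 4.47 in Adar1 KO, by 2.67 (SE 0.32, adjusted p = 4.1e-08). In neither genotype did treated and untreated libraries overlap for Maf or Bhlhe40. The fall in NTC lay at the threshold: its call was lost with no filter (adjusted p = 0.090) and in 22 of 33 fits that left out 1 library. Without untreated NTC replicate 1, 1 of 6 factors was called in NTC. Whether the 2 genotypes responded differently was not tested.

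Mef2a rose with 10 uM to 7.09, 6.82 and 6.86 in NTC (log2FC 0.54, SE 0.13, adjusted p = 0.0061) and to 6.95, 7.28, 7.00 and 6.84 in Adar1 KO (log2FC 1.23, SE 0.12, adjusted p = 7.4e-10). Sall3 rose by 1.09 in NTC (adjusted p = 0.024) and by 1.40 in Adar1 KO (adjusted p = 0.00019), with group means of 0.97 and 1.17 at 0 uM and 2.06 and 2.58 at 10 uM. Its call in NTC was lost in 4 of 33 fits that left out 1 library (adjusted p up to 0.096). Bhlhe41 rose by 0.78 in Adar1 KO (adjusted p = 5.2e-05) and was flat in NTC, with means of 7.82 to 7.87 over the 5 doses. Mef2c in Adar1 KO was 4.35, 3.04, 5.61 and -2.22 at 10 uM, and its rise of 5.01 (adjusted p = 0.030) was 3.13 with library weights (adjusted p = 0.20). The untreated Adar1 KO libraries lay near the lowest value, so the size of this rise depends on it. Sall1 was at the lowest value in 3 of 3 untreated Adar1 KO, 3 of 3 NTC at 10 uM and 3 of 4 Adar1 KO at 10 uM, and was between -2.24 and -1.58 in untreated NTC.

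The doses between were not tested and are given as levels. Mean Maf in NTC was 3.30, 3.92, 3.87, 4.32 and 4.36 from 0 to 10 uM. In Adar1 KO it was 2.84, 3.18, 3.36, 3.40 and 5.22, with the largest step of the means between 0.4 and 10 uM. The Adar1 KO libraries at 0.4 uM were unlike each other in Adar, as given below. Mean Bhlhe40 in Adar1 KO was 7.12, 6.90, 6.47, 6.03 and 4.45, while in NTC it was 6.16, 5.70, 5.61, 5.57 and 5.15. Mean Sall3 in Adar1 KO was 1.17, 0.41, 0.85, 1.62 and 2.58, below the untreated level at 0.0006 and 0.016 uM. In NTC the mean of Sall3 was 0.97, 1.60, 1.53, 1.83 and 2.06. Adar in Adar1 KO libraries was 4.12, 7.38 and 4.21 at 0.4 uM and 1.55, 2.15, 2.91 and 2.03 at 10 uM, which is lower than the 3.70, 3.64 and 3.22 of NTC at 10 uM. MAF-linked genes gave 4 up and 1 down of 5 in Adar1 KO at 10 uM (median 2.97, all genes 0.054, with 65.0% of genes called) and 3 up and 1 down in NTC (median 2.27, all genes -0.0071, with 13.6% called). They gave 1 up and 1 down in untreated Adar1 KO against NTC (median -0.54, with 24.9% called).

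**Figure D4:**
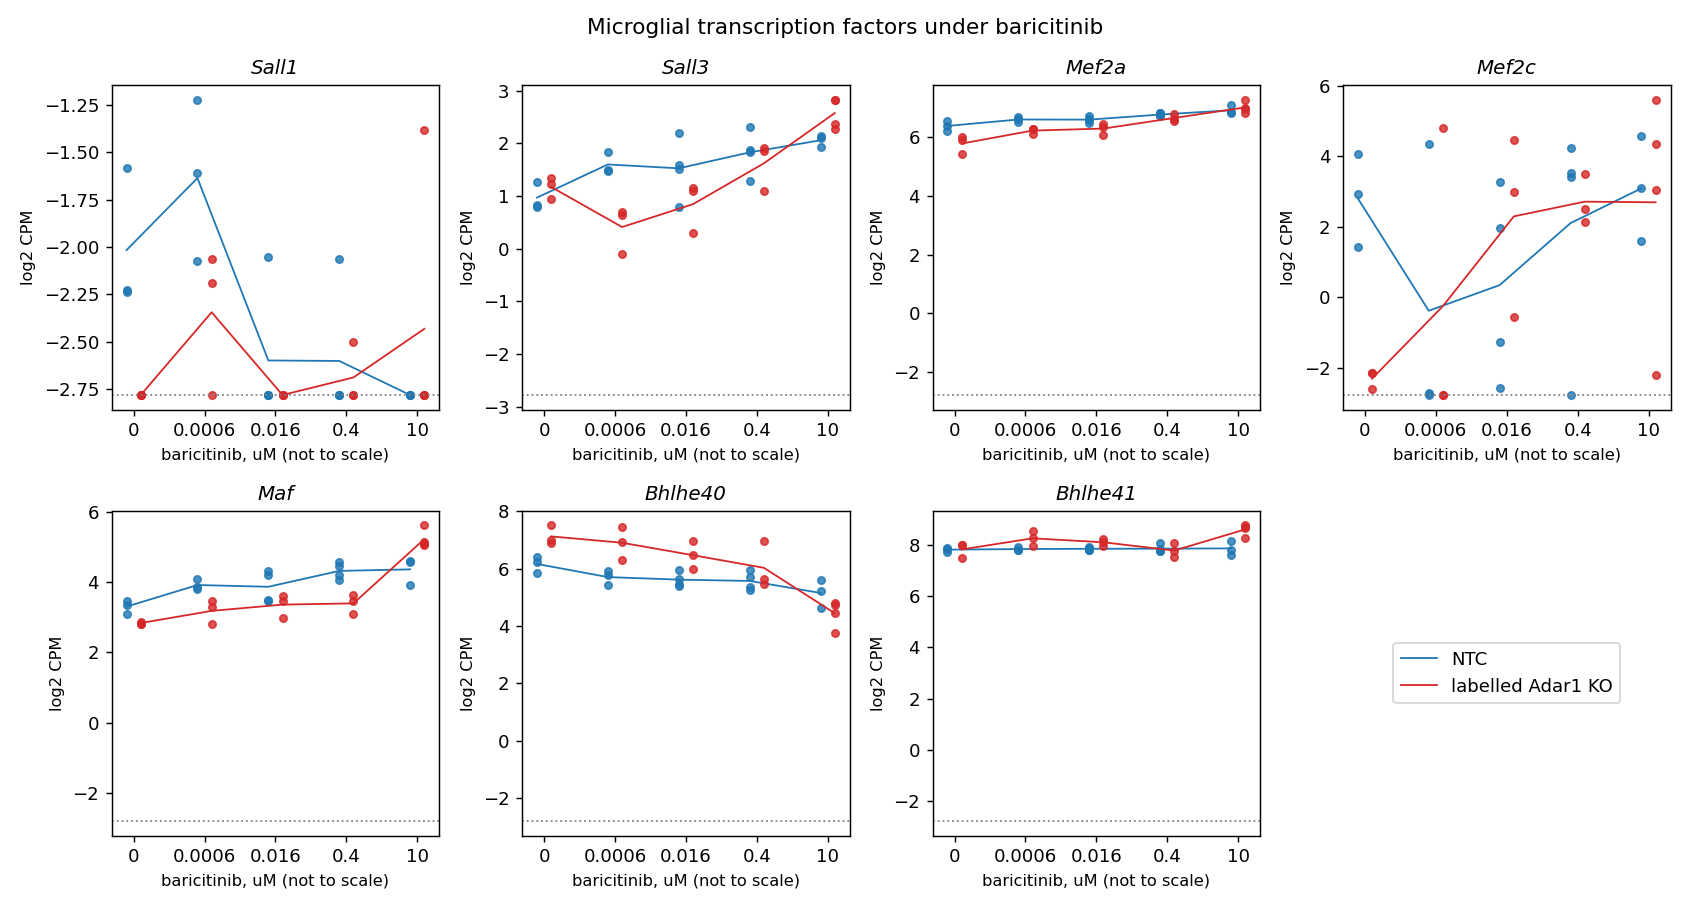
Log2 CPM of each factor in macrophages given 0, 0.0006, 0.016, 0.4 or 10 uM baricitinib (doses evenly spaced, not to scale); points are libraries, lines join group means, blue is NTC and red is labelled Adar1 KO, and the dotted line is the lowest value (-2.78). By group means, Maf climbs and Bhlhe40 declines most between 0.4 and 10 uM in the libraries labelled Adar1 KO, and Sall1 stays near the lowest value.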

How the data were processed

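RNA was sequenced from 92 libraries of mouse microglia, engrafted microglia-like cells, marrow cells and cultured ER-Hoxb8 cells. Per the submitters' processing notes, reads were checked with FastQC and MultiQC and assigned to transcripts with kallisto 0.46.0 on GRCm39, and values were filtered and normalized by TMM in edgeR and limma. The deposited table holds log2 CPM for 29957 entries, of which 1 had no gene name (0.00217% to 0.0424% of a library) and was not used; 0 columns were unused. Its columns have 6 different lowest values, so the authors normalized at least 6 sets of libraries separately, and comparisons stayed within a set. NTC macrophage replicate 2, alone in its set, was left out, and 91 libraries entered the fits.

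Genes that passed a CPM of 1 in 6 or more libraries of the set with microglia, or 3 or more of another set, were tested with limma 3.58.1 in R 4.3.3, with a mean for each group and a variance trend. All p-values were adjusted over all genes tested (Benjamini-Hochberg), and a gene was called at an adjusted p below 0.05; a DEG also had a log2FC of 2 or more in size. The fits were tested on simulated data, and the outcome of that test is not reported here. Tables and plots were made with Python 3.11.15, pandas 2.3.3, numpy 2.4.6 and matplotlib 3.10.9.

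Named genes were the 7 members, at most 4 DEG of each related list by size of log2FC, the 3 genes with the highest Pearson correlation to each member over the 27 libraries of the set with microglia, and Adar; Sall2 was also named where its log2FC was below 2 in size, and genes that say what a list holds were named as examples. Results of some genes and lists are not reported here. Members and lists were chosen with earlier results of these data known. Promoters came from a RefSeq table on GRCm38.p6, another build than that of the reads, with 250 bases before and 50 after the start; 4 of 7 members were matched.

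Depth is unknown: 7.46% to 35.3% of low values were whole multiples of the smallest step (tolerance 0.02, multiples below 20), and 41.2% to 57.6% of genes were at the lowest value. The study calls its replicates biological, but the labels do not say which animal or culture each came from, so p-values measure the spread between samples. Alternatives tried were log2(CPM + 1), no filter, a mean CPM above 5, quantile normalization, library weights, the replicate number as a block, the DEG limit of 2, leaving out each library in turn, the GFPHox or WTHox libraries alone and the 7 WT microglia alone.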

Additional observations from a re-analysis of the deposited data

Results flagged for a closer look

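Of 49 combinations of a factor and a group of 4 to 10 libraries, 7 held 1 library far from the others of its group, by Dixon's ratio at the 95% level. Chance gives about 1 in 20 where values are not tied, which holds for 4 of the 7. In ER-Hoxb8 MLC, replicate 6 was far below the other 5 libraries for Sall3 (-0.30) and for Mef2c (3.35). In sgRNA 2 macrophages, replicate 2 was below the other 4 for Sall3 (0.84). In NTC macrophages at 0.4 uM baricitinib, replicate 1 was below the other 3 for Mef2c (-2.77). Sall1 was above the lowest value in 1 library while the other 3 were tied at it, which sets the ratio to 1 by construction, in 3 groups: Adar1 KO at 10 uM (replicate 2, -1.38), NTC at 0.016 uM (replicate 3, -2.05) and NTC at 0.4 uM (replicate 2, -2.06).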

How the results depend on the processing

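Across all alternatives, 3562 log2FC kept their direction and side of the threshold and 549 counts stayed within 1.5 times, 138 lost and 37 gained the threshold with the same direction, 65 changed direction and 33 counts moved by over 1.5 times. Every log2FC that changed direction was one not called as reported, and the cause was not tested. No count moved by over 1.5 times with a mean CPM above 5, the replicate block, the WTHox libraries alone or the 7 WT microglia alone, though 5, 3 and 2 calls were lost with the last 3. Depth is unknown, so its limit on factors near the lowest value could not be given.

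Counts of factors moved as follows. With library weights they were 5 (reported 3) for BMD MLC against microglia, 4 (2) for ER-Hoxb8 MLC against BMD MLC, 4 (1) for ER-Hoxb8 against BMD macrophages, 2 (0) for BM monocytes against BM progenitors, and 1 (0) for the difference between donor types, Mef2c at 5.26 (adjusted p = 0.028). With the DEG limit they were 3 (5) for ER-Hoxb8 MLC against microglia, 1 (2) against BMD MLC, 4 (7) for microglia against BMD macrophages, 1 (4) for sgRNA 1 against NTC macrophages, 2 (5) for sgRNA 2 differentiation, 0 (2) for untreated Adar1 KO against NTC, and 0 (4) and 3 (6) for baricitinib in NTC and Adar1 KO, where fewer genes pass by construction. On log2(CPM + 1), ER-Hoxb8 against BMD macrophages gave 0 (1). Untreated Adar1 KO against NTC gave 1 (2) with no filter and 1 (2) after quantile normalization, which gave 4 (2) for ER-Hoxb8 MLC against BMD MLC. With GFPHox alone, the difference between donor types gave 1 (0).

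Direction changed after quantile normalization for Bhlhe41 in ER-Hoxb8 MLC against their macrophages (0.11), BMD MLC (-0.13) and in untreated Adar1 KO against NTC (-0.084), Sall1 in ER-Hoxb8 against BMD macrophages (0.24), Maf in the difference between donor types (-0.038) and Mef2c in BM monocytes against BM progenitors (0.021). With library weights it changed for Bhlhe41 in ER-Hoxb8 MLC against their macrophages (0.11), Bhlhe40 (-0.23) and Sall1 (0.34) in ER-Hoxb8 against BMD macrophages, Maf in the difference between donor types (-0.72), Mef2c (0.55) and Sall3 (-0.11) in BM monocytes against BM progenitors, Mef2a in ER-Hoxb8 against BM progenitors (-0.30) and Mef2c with baricitinib in NTC (-0.67). With GFPHox alone it changed for Bhlhe41 in ER-Hoxb8 MLC against their macrophages (0.025) and Mef2a in the difference between donor types (0.091), and with WTHox alone for Mef2c in ER-Hoxb8 against BMD MLC (-0.41).

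Samples of the same replicate number had residuals correlated above 0.1 in 11 of 39 pairs of the set with microglia, 7 of 18 of the marrow set, 9 of 15 of the NTC and sgRNA 1 set, 0 of 3 of the sgRNA 2 set and 9 of 138 of the baricitinib set. Samples of unlike number did so in 63 of 240, 3 of 36, 3 of 30, 0 of 12 and 24 of 351 pairs. In the marrow set and the NTC and sgRNA 1 set the numbers may thus pair samples, and the fits reported did not use them. With the number as a block, direction changed for Sall3 in sgRNA 1 against NTC macrophages (0.0063) and Mef2c in sgRNA 2 differentiation (-0.47). Calls were lost for Maf in ER-Hoxb8 MLC against microglia (-1.29), Maf in microglia against BMD macrophages (1.50), Sall3 in ER-Hoxb8 MLC against their macrophages (2.33), Mef2a in sgRNA 1 against NTC macrophages (-0.54) and Bhlhe40 with baricitinib in NTC (-1.01).

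Leaving out each library in turn, direction changed over these ranges. Against microglia, Maf in BMD MLC ran from -0.075 to 0.24. ER-Hoxb8 MLC against BMD MLC gave -1.09 to 0.035 for Bhlhe40, -0.093 to 0.45 for Bhlhe41 and -0.78 to 0.59 for Mef2c, and against their macrophages -0.27 to 0.30 for Bhlhe41. ER-Hoxb8 against BMD macrophages gave -0.39 to 0.23 for Sall1, and the difference between donor types -1.11 to 1.05 for Maf and -0.41 to 0.043 for Mef2a. BM monocytes against BM progenitors gave -0.20 to 0.28 for Bhlhe40, -0.041 to 0.72 for Maf, -0.54 to 0.35 for Mef2c and -0.18 to 0.41 for Sall3. ER-Hoxb8 against BM progenitors gave -1.55 to 0.080 for Bhlhe41, -3.61 to 0.23 for Maf and -0.85 to 0.82 for Mef2a, and 4div cells against ER-Hoxb8 progenitors -0.96 to 0.19 for Bhlhe40. Mef2c ran from -5.82 to 0.60 in NTC differentiation, -1.41 to 0.33 in sgRNA 1 against NTC progenitors and -0.34 to 6.08 in sgRNA 1 against NTC macrophages, where Sall3 ran from -0.15 to 0.0022. Mef2a in sgRNA 1 against NTC progenitors ran from -0.20 to 0.053. Bhlhe41 ran from -0.086 to 0.18 in untreated Adar1 KO against NTC and from -0.10 to 0.17 with baricitinib in NTC, where Mef2c ran from -0.46 to 1.04.

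Counts with 1 library left out ranged from 2 to 5 for BMD MLC against BMD macrophages (2 without BMD macrophage replicate 2), 3 to 6 for ER-Hoxb8 MLC against ER-Hoxb8 macrophages (3 without macrophage replicate 3 or MLC replicate 2 or 4), 0 to 2 for BM monocytes against BM progenitors, 3 to 5 for ER-Hoxb8 against BM progenitors and 0 to 3 for 4div cells (these 3 highest counts without ER-Hoxb8 progenitor replicate 2). They ranged from 1 to 2 for untreated Adar1 KO against NTC and from 1 to 4 for baricitinib in NTC (1 without untreated NTC replicate 1). Where this left a group with 1 library, that library was assumed to vary like the other groups. Quantile normalization moved the median log2FC of all genes by over 0.1 from -0.048 to 0.085 in microglia against BMD macrophages, from -0.22 to -0.12 in ER-Hoxb8 against BMD MLC and from 0.046 to -0.059 in sgRNA 1 against NTC macrophages.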
